A study of Mus musculus with 4 samples.

Results

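A set of 10 genes that mark hepatic stellate cells or their activation was followed in liver RNA-seq of mice on a high-fat diet (HFD): Lrat, Reln, Des, Pdgfrb, Hgf, Dcn, Lum, Acta2, Timp1 and Tgfb1. They were taken by gene symbol, and all 10 were among the 25655 genes in the count table and among the 12967 genes with enough reads to be tested. Liver RNA was sequenced in 2 libraries of HFD-WT and 2 libraries of HFD-KO male mice. HFD-WT mice were ADAR2+/+/GluR-B R/R and HFD-KO mice were ADAR2-/-/GluR-B R/R, so both genotypes carried the edited GluR-B allele that keeps mice without ADAR2 alive. The knockout was in the whole body, on a B6129S background, with mice bred from heterozygous parents, and the diet began at 5 weeks of age and lasted 12 weeks. The study's text gives more mice per group for its gene set analysis than there are libraries, but not whether a library held the RNA of 1 mouse or of several, and p-values therefore measure only the spread between these libraries.

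Hepatic stellate cells lie between hepatocytes and the sinusoidal endothelium, where they store vitamin A as retinyl esters in lipid droplets. In an injured liver they lose these droplets, respond to platelet-derived growth factor (PDGF) and transforming growth factor beta (TGF-beta), and become contractile myofibroblasts that lay down collagen. In whole liver their transcripts are diluted by those of hepatocytes, and fewer stellate cells cannot be told apart from less RNA per cell.

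Adarb1, which encodes ADAR2, was read first as a check of the labels. It had 15.7 and 19.8 CPM (reads per 1000000 reads, with library sizes scaled by TMM) in the HFD-WT libraries and 6.23 and 9.55 CPM in the HFD-KO libraries. The log2 fold change was -1.17 (SE 0.204), with an adjusted p of 0.159 in edgeR's quasi-likelihood test, and both HFD-KO libraries lay below both HFD-WT libraries. The adjusted p of Adarb1 was under 0.05 in 5 of 10 alternatives, at 4.2e-04 in DESeq2's Wald test, 0.00251 without the filter, 0.0400 with the replicate block, 2.3e-04 without HFD-KO replicate 1 and 3.1e-07 without HFD-KO replicate 2, and it was 0.971 without HFD-WT replicate 2. Reads were counted on Adarb1 in the HFD-KO libraries too, 164 and 228 of them. Total counts ranged from 24480798 to 28691330 per library, and 3 reads, taken as the floor for counting error, corresponded to 0.105 to 0.123 CPM. The 4 libraries as a set held hepatocyte markers at a summed 94190 to 110400 CPM.

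None of the 10 genes differed between the genotypes at an adjusted p under 0.05, a threshold that 10 of the 12967 genes tested (0.0771%) passed. A total of 3, Reln, Lum and Dcn, were lower in HFD-KO at an unadjusted p under 0.05, against 4.73% of all genes tested, and 0 were higher, against 4.25%. DESeq2's Wald test called 1 of the 10, Reln, against 0.887% of all genes, and edgeR without the filter on low counts called 2, Reln and Lum, against 0.936%. The log2 fold change was below 0 for 8 of the 10, against 48.4% of all genes, and above 0 for Des and Acta2. Both HFD-KO libraries lay below both HFD-WT libraries for 6 of the 10, Lrat, Reln, Dcn, Lum, Timp1 and Tgfb1, against 20.3% of all genes. The median log2 fold change of the 10 was -0.30, and that of all genes tested was 0.01. With 2 libraries against 2, the smallest exact two-sided permutation p for a single gene is 0.333.

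**Figure D1:**
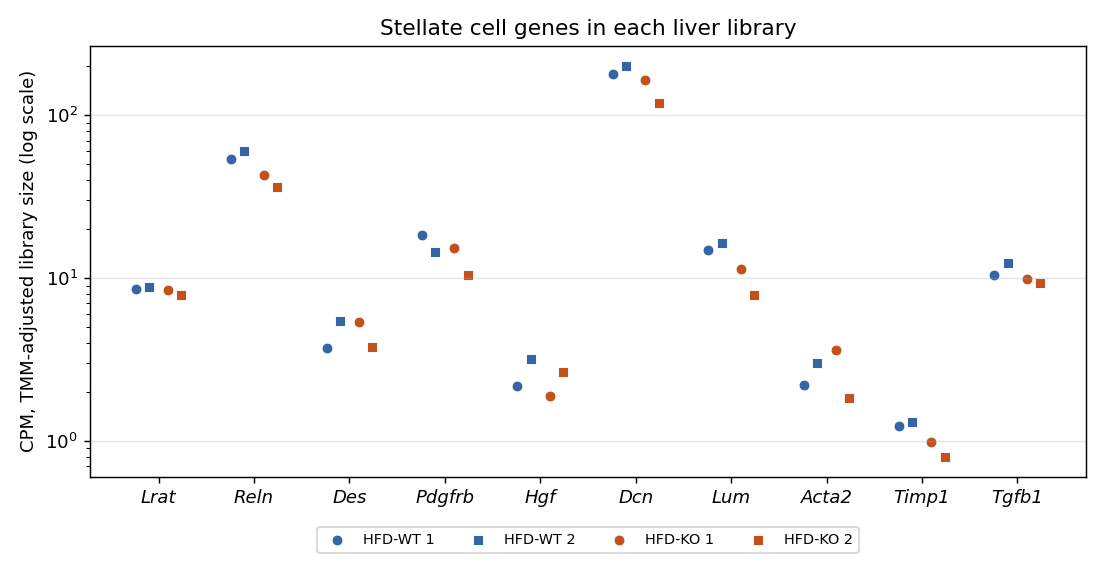
CPM on a log axis for each of the 10 genes, with HFD-WT libraries in blue and HFD-KO libraries in orange, circles for replicate 1 and squares for replicate 2. The orange points lie below the blue points for Lrat, Reln, Dcn, Lum, Timp1 and Tgfb1, and mix with them for Des, Pdgfrb, Hgf and Acta2.

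HFD-KO replicate 2 held the lowest value of 8 of the 10 genes, the exceptions being Des and Hgf. Of the 10, 9 were lower there than in HFD-KO replicate 1. How many of all genes tested were lowest in that library was not counted. The HFD-KO libraries also differed more over all genes than the HFD-WT libraries (chi-square over its degrees of freedom 34.1 against 8.80). Whether the low values are particular to the 10 genes is therefore not shown. Relative to the HFD-WT mean, the median log2 level of the 10 genes was -0.20 in HFD-KO replicate 1 and -0.58 in HFD-KO replicate 2, and it was -0.08 and 0.08 in the HFD-WT libraries. Without HFD-KO replicate 1, 4 of the 10 genes had an adjusted p under 0.05 (Reln, Dcn, Lum and Pdgfrb), against 5.31% of all genes. Without HFD-KO replicate 2, only Reln did, against 3.08%. Without HFD-WT replicate 2, none of the 10 and 0 of all genes passed.

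Of the identity genes Lrat, Reln and Des, Reln was lower in HFD-KO at the unadjusted threshold and Lrat and Des did not pass it. The receptor gene Pdgfrb and the ligand gene Hgf did not pass it either. Lrat encodes lecithin retinol acyltransferase, the enzyme that makes retinyl esters. It lies on chromosome 3 of GRCm39, positions 82799886 to 82811280, minus strand. Its level was 8.56 and 8.83 CPM in HFD-WT and 8.43 and 7.87 CPM in HFD-KO. The HFD-KO values were the lower ones, and HFD-KO replicate 1 lay close under HFD-WT replicate 1. The log2 fold change was -0.09 (95% interval -0.38 to 0.20, adjusted p = 0.862).

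Reln encodes reelin, a large secreted glycoprotein that stellate cells make in the liver. It spans positions 22089452 to 22549700 of chromosome 5, minus strand. It had 54.3 and 60.0 CPM in HFD-WT and 42.7 and 36.4 CPM in HFD-KO. Both HFD-KO libraries were clearly under both HFD-WT libraries, with means of 57.2 ± 4.06 and 39.6 ± 4.46 CPM (SD, n = 2 each). The log2 fold change was -0.53 (SE 0.106, 95% interval -0.78 to -0.28), or 0.693 times the HFD-WT level. The unadjusted p was 0.00135 and the adjusted p 0.231 in edgeR's test. DESeq2's Wald test gave an adjusted p of 0.0231, and edgeR without the filter on low counts gave 0.0255. Leaving out each library in turn moved the log2 fold change of Reln between -0.65 and -0.42. It was -0.65 without HFD-KO replicate 1, -0.42 without HFD-KO replicate 2, -0.61 without HFD-WT replicate 1 and -0.45 without HFD-WT replicate 2. Each of these fits left 1 library in a group.

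The letters upstream of the start site are shown for these 2 identity genes and for 2 activation genes, because Reln had the smallest p of the identity genes and Lrat is the one that defines vitamin A storage. Each is the 250 bases before the RefSeq start site, 5′ to 3′ on the gene's own strand in the GRCm38.p6 build, so the positions are not on the scale of those above. Capitals mark the matches found on either strand for 5 motifs: the TATA box as TATAAA, the core of the GC box as GGGCGG, the AP-1 type site as TGANTCA, the SMAD type element as CAGACA, and the CArG box, the site of serum response factor. No 2 matches overlapped. The windows are chr5:22344706-22344955 for Reln, chr3:82903975-82904224 for Lrat, chr7:25686752-25687001 for Tgfb1 and chr19:34255374-34255623 for Acta2, with Tgfb1 on the plus strand and the others on the minus strand.
Reln: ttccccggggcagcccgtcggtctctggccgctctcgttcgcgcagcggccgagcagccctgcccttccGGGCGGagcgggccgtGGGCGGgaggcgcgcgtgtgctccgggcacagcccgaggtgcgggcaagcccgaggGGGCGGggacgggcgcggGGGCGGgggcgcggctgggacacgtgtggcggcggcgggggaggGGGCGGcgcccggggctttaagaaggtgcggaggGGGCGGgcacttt
Lrat: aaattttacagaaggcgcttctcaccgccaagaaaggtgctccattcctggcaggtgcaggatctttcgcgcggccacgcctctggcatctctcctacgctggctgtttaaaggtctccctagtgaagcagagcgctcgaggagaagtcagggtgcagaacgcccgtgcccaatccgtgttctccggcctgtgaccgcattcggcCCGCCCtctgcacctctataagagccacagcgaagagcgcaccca
Tgfb1: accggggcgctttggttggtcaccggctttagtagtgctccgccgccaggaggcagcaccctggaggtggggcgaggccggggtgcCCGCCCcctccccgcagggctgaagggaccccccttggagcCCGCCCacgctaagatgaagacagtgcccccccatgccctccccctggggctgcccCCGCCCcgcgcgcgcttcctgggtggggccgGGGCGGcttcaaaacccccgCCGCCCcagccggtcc
Acta2: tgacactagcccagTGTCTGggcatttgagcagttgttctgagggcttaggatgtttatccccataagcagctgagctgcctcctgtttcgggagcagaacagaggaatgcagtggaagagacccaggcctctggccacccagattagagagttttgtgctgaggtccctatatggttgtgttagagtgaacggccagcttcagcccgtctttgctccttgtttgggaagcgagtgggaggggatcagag

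The Reln window was 80.0% G and C and held GGGCGG, the core letters of the GC box, 6 times, all on the gene's own strand between 181 and 8 bases before the start. The Lrat window was 59.2% G and C and held 1 match, on the opposite strand. Tgfb1 had 5 matches in a window of 75.2% G and C. The Acta2 window, at 53.6% G and C, held no GGGCGG, and its 1 match was CAGACA, read on the opposite strand. It held no exact consensus CArG box, in which all 6 inner bases are A or T. With 1 inner base allowed to be G or C, a search added after the first was seen, it held 2, from 84 to 75 and from 34 to 25 bases before the start. The Lrat window held 1 of that kind, the windows of Reln and Tgfb1 held none, and 8.59% of all windows held at least 1. Over all 32851 RefSeq windows of this length the median G and C content was 52.4%, and GGGCGG occurred in 32.7%, CAGACA in 17.1%, TATAAA in 12.4%, TGANTCA in 6.75% and the CArG box in 1.47%. Windows were held for 7 of the 10 genes, and those of Des, Timp1 and Hgf had 2, 1 and 0 GGGCGG matches. A match is a description of the letters only.

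Des, Pdgfrb and Hgf varied as much within a genotype as between them. Des encodes desmin, the intermediate filament of muscle and stellate cells. It had 3.73 and 5.42 CPM in HFD-WT and 5.39 and 3.77 CPM in HFD-KO, so the genotypes overlapped fully. The difference on the log2 scale was 0.01 (95% interval -0.59 to 0.61, adjusted p = 0.995), and the sign turned with the library left out, from -0.28 to 0.30.

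Pdgfrb encodes the receptor through which PDGF drives stellate cell growth and migration. It had 18.3 and 14.5 CPM in HFD-WT and 15.4 and 10.5 CPM in HFD-KO. The lower HFD-WT library lay under the higher HFD-KO library. Its log2 fold change was -0.34 (95% interval -0.79 to 0.10, adjusted p = 0.653), and the lone HFD-KO replicate 2 gave -0.65 (adjusted p = 0.00806) where HFD-KO replicate 1 gave -0.10 (adjusted p = 0.896).

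Hgf encodes hepatocyte growth factor, a mitogen for hepatocytes that stellate cells secrete. It had 2.18 and 3.20 CPM in HFD-WT and 1.90 and 2.64 CPM in HFD-KO. The genotypes overlapped, and this was the only one of the 10 genes to be higher in HFD-KO replicate 2 than in replicate 1. HFD-KO differed from HFD-WT by a log2 fold change of -0.25 (95% interval -0.93 to 0.44, adjusted p = 0.846). It rested on 50 to 88 reads per library, and it shares 993 bases with a predicted gene on the same strand, Gm43489, which had 5 to 10 reads.

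Dcn and Lum were both lower in HFD-KO at the unadjusted threshold. They encode decorin and lumican, small leucine-rich proteoglycans that bind collagen fibrils. Both lie on the plus strand of chromosome 10, Dcn from 97315471 to 97354005 and Lum from 97400990 to 97408565, with 46985 bases between them. Dcn had 179 and 202 CPM in HFD-WT and 165 and 119 CPM in HFD-KO. Every HFD-KO value was under every HFD-WT value, but the gap between the HFD-KO libraries was wider than the gap from HFD-KO replicate 1 to HFD-WT. The means were 191 ± 16.2 and 142 ± 33.0 CPM (SD, n = 2 each).

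For Dcn the log2 fold change was -0.42 (SE 0.153, 95% interval -0.78 to -0.07), with an unadjusted p of 0.0261 and an adjusted p of 0.480. It was -0.68 without HFD-KO replicate 1 and -0.21 without replicate 2, where the adjusted p were 2.2e-05 and 0.426. HFD-KO replicate 2 was thus the library that set its size.

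Lum had 14.9 and 16.4 CPM in HFD-WT and 11.3 and 7.87 CPM in HFD-KO. The libraries of the genotypes did not overlap, and the means were 15.7 ± 1.05 and 9.60 ± 2.44 CPM (SD, n = 2 each). The log2 fold change of -0.70 (SE 0.168, 95% interval -1.10 to -0.31) was the largest in size of the 10, or 0.615 times the HFD-WT level. The unadjusted p was 0.00379 and the adjusted p 0.281, against 0.0952 in DESeq2's test and 0.0325 in edgeR without the filter. The log2 fold change was -0.99 without HFD-KO replicate 1 (adjusted p = 5.1e-05) and -0.47 without replicate 2 (adjusted p = 0.0761).

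**Figure D2:**
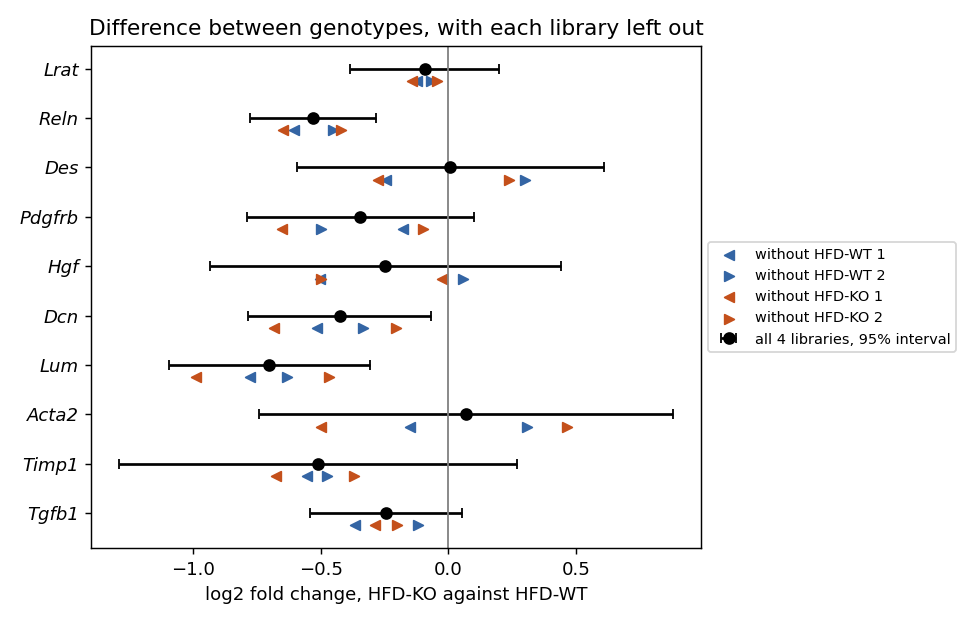
Log2 fold change between the genotypes (HFD-KO over HFD-WT) for each of the 10 genes. Black points are the fit to all 4 libraries with the 95% interval, and triangles are the fits with 1 library left out, which run from -0.65 to -0.42 for Reln, from -0.68 to -0.21 for Dcn and on both sides of 0 for Des, Hgf and Acta2.

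None of the activation genes Acta2, Timp1 and Tgfb1 passed the adjusted or the unadjusted threshold. Acta2 encodes alpha smooth muscle actin, the usual mark of an activated stellate cell, and is also made by vascular smooth muscle. It lies at 34218490 to 34232990 of chromosome 19. It had 2.21 and 3.02 CPM in HFD-WT and 3.61 and 1.84 CPM in HFD-KO. The HFD-KO libraries held both the highest and the lowest value, so the HFD-WT values lay between them. Its log2 fold change was 0.07 (95% interval -0.74 to 0.88, adjusted p = 0.973), and it was 0.47 without HFD-KO replicate 2 and -0.50 without replicate 1.

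Timp1 encodes an inhibitor of the metalloproteinases that degrade matrix. It had 1.24 and 1.31 CPM in HFD-WT and 0.988 and 0.795 CPM in HFD-KO. All HFD-KO values were lower, but they stood on 26 and 19 reads against 36 in each HFD-WT library, and the counting error of the shallowest library alone was 22.9%. Its log2 fold change was -0.51 (95% interval -1.29 to 0.27, adjusted p = 0.696). The gene lies wholly within Syn1 on the opposite strand, which had 5 to 10 reads per library, and the use of strand in counting was not given in the sources used here.

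Tgfb1 encodes TGF-beta 1, the main ligand that turns stellate cells toward matrix production, and several liver cell types make it. It had 10.5 and 12.4 CPM in HFD-WT and 9.92 and 9.34 CPM in HFD-KO. Both HFD-KO libraries were lower than both HFD-WT libraries, by less than the gap within HFD-WT for the nearest pair. Its log2 fold change was -0.24 (95% interval -0.54 to 0.05, unadjusted p = 0.0953, adjusted p = 0.633).

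Levels were compared between genes only per length, as RPKM, the CPM divided by the exon length in kilobases. Dcn stood alone at a mean of 73.4 RPKM over the 4 libraries, 15.3 times the next gene and 77.9% of the sum over the 10. Lum (4.78), Tgfb1 (4.02), Reln (3.83) and Pdgfrb (2.48) followed, and each overlapped its neighbour in its range over the libraries. Lrat (1.46), Des (1.40), Timp1 (1.13), Acta2 (1.12) and Hgf (0.641) formed the lower group, again with ranges that overlapped from one gene to the next. The only neighbours in this order whose ranges did not overlap were Dcn and Lum, and Pdgfrb and Lrat. Per length, Acta2 and Timp1 were thus near the level of Lrat and far under Dcn.

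Other stellate cell genes showed values of the same sign more often than not. Of 32 further identity genes, 31 were tested and Dbh had no read. Of the 31, 24 had a log2 fold change below 0, against 48.4% of all genes, with a median of -0.14 against 0.01. At an unadjusted p under 0.05, 8 were lower and 0 higher, against 4.73% and 4.25% of all genes, and 0 passed the adjusted threshold. These shares, from the fit to all 4 libraries, also stand beside the counts of each list below. Vipr1, a receptor for vasoactive intestinal peptide, had a log2 fold change of -0.46 (unadjusted p = 0.00270, adjusted p = 0.260), and the matrix protein gene Prelp had -0.42 (adjusted p = 0.417). Gdf2, which encodes the ligand BMP9, had -0.30 (adjusted p = 0.438), and Steap4, a metalloreductase, had -0.36 (adjusted p = 0.496). Ecm1, an extracellular matrix protein, had -0.24 (adjusted p = 0.590). The 8 became 1 without HFD-WT replicate 2 and 5 in DESeq2's test.

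Among 33 tested genes of myofibroblasts and fibrillar matrix, 26 had a log2 fold change below 0 and the median was -0.30. At the unadjusted threshold 8 were lower and 2 higher, against 4.73% and 4.25% of all genes, and 0 passed the adjusted threshold. Col1a1, the alpha 1 chain of type I collagen, had 30.3 and 34.2 CPM in HFD-WT and 21.0 and 14.4 CPM in HFD-KO, a log2 fold change of -0.87 (unadjusted p = 0.00106, adjusted p = 0.210). Col1a2 and Col3a1, picked out after their values were seen, had -0.71 and -0.57. DESeq2's Wald test and edgeR without the filter gave Col1a1 adjusted p of 0.00239 and 0.00525. Ccn2, a matricellular target of TGF-beta, had -0.52 and Spp1, osteopontin, had -0.62, the latter with adjusted p of 0.0317 and 0.0336 in those fits. In the other direction, Ccn1 had 13.5 and 13.7 CPM in HFD-WT and 22.8 and 18.4 CPM in HFD-KO. Its log2 fold change was 0.60 (unadjusted p = 0.00135, adjusted p = 0.231 in edgeR's test). For Ccn1 the adjusted p was 0.0735 in DESeq2's Wald test and 0.0240 in edgeR without the filter. Fn1, fibronectin, which hepatocytes also make, had 0.18 (adjusted p = 0.768). The 8 lower genes became 4 in DESeq2's test and 4 without HFD-WT replicate 2, and 13 without HFD-KO replicate 1 and 13 without the filter.

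**Figure D3:**
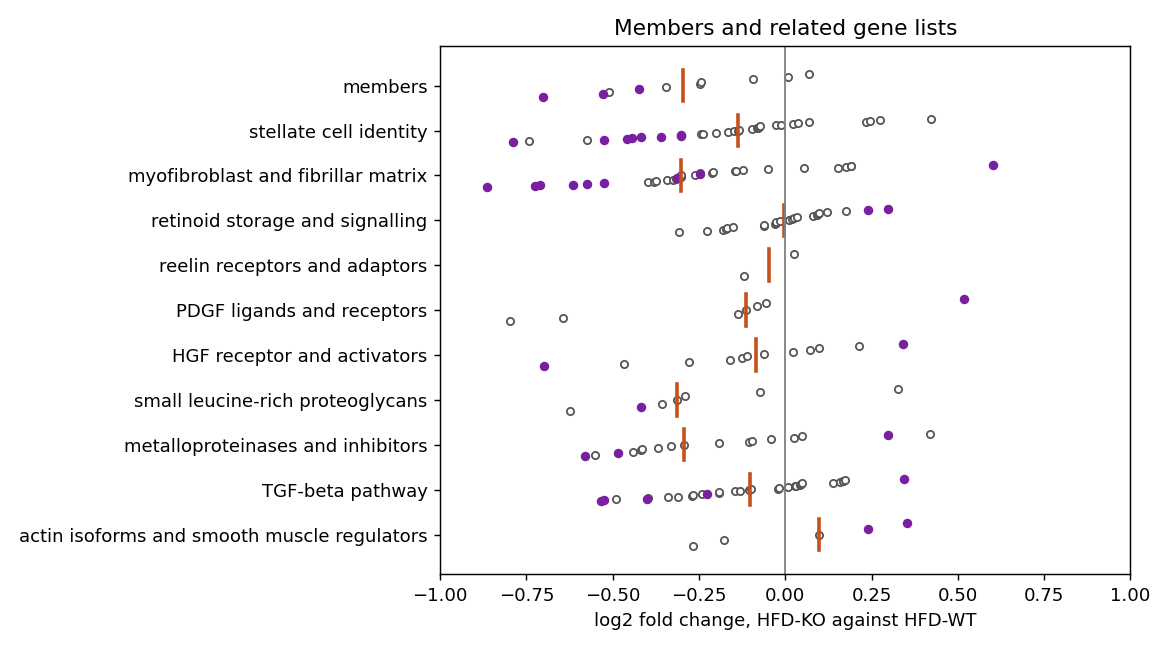
Log2 fold change between the genotypes (HFD-KO over HFD-WT) for the 10 genes (top row, members) and for the tested genes of 10 related lists, with filled points at an unadjusted p under 0.05 and an orange bar at each median. The medians of the 10 genes and of the matrix list are both -0.30 and that of the retinoid list is -0.00. Values beyond the ends of the axis are not drawn but count toward the medians.

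The vitamin A pathway around Lrat gave 12 genes below 0 and 12 above among 24 tested, with a median of -0.00. None was lower and 2 were higher at the unadjusted threshold, Dhrs3, which reduces retinal to retinol, at 0.30 (adjusted p = 0.360) and the retinoic acid receptor Rara at 0.24 (adjusted p = 0.445). The 2 became 0 without HFD-WT replicate 1 and 1 without HFD-WT replicate 2. Rbp4 and Ttr, which carry retinol in plasma, had 0.10 and 0.03. The triglyceride lipase Pnpla2 had -0.17 (adjusted p = 0.581). Of the reelin receptors and adaptors, 2 of 4 were tested, with Vldlr at -0.12 and Dab2 at 0.03 (adjusted p = 0.874 and 0.967).

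Around Pdgfrb, 6 of the 7 PDGF ligands and receptors had a value below 0, and the 1 at the unadjusted threshold was the co-receptor Nrp1, higher at 0.52 (adjusted p = 0.487). The ligand gene Pdgfd had -0.80 (adjusted p = 0.570), the receptor-like gene Pdgfrl -0.64 (adjusted p = 0.756) and the ligand gene Pdgfa -0.06 (adjusted p = 0.926). Around Hgf, its receptor Met was higher at 0.34 (unadjusted p = 0.0340) and the plasminogen activator Plat lower at -0.70 (unadjusted p = 0.0465), 2 of 12 genes. Over all genes tested, 4.25% were higher and 4.73% lower at that threshold. Plasminogen itself, Plg, had 0.21, and the activating protease Hpn had 0.02. Both lists had 0 genes in these directions at the unadjusted threshold without HFD-WT replicate 1, without HFD-WT replicate 2 and without HFD-KO replicate 2.

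Around Dcn and Lum, 6 of the 7 other small leucine-rich proteoglycans tested had a value below 0, with a median of -0.31, and Prelp alone passed the unadjusted threshold (3 of the list did without HFD-KO replicate 1). Bgn, biglycan, had 112 and 136 CPM in HFD-WT and 120 and 83.5 CPM in HFD-KO, which overlapped, with a log2 fold change of -0.29 (adjusted p = 0.671). Fmod, fibromodulin, had -0.62 (adjusted p = 0.639) and Podn, podocan, -0.36 (adjusted p = 0.617). Around Timp1, 13 of 17 metalloproteinases and inhibitors were below 0, against 48.4% of all genes tested. Timp3 was lower at -0.49 (unadjusted p = 0.00158, adjusted p = 0.233), as was Mmp12 at -0.58 (adjusted p = 0.551). Mmp14 was higher at 0.30 (adjusted p = 0.478), and Mmp19 had -0.04. The count lower, 2, became 6 without HFD-KO replicate 1 and 1 without HFD-KO replicate 2 or HFD-WT replicate 2, and the count higher, 1, became 0 without HFD-KO replicate 2, HFD-WT replicate 1 or HFD-WT replicate 2.

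Around Tgfb1, 4 of 32 tested pathway genes were lower at the unadjusted threshold, against 4.73% of all genes tested. Of the 32, 2 were higher, against 4.25%, and 19 were below 0, against 48.4%. The type II receptor Tgfbr2 had 32.8 and 35.3 CPM in HFD-WT and 27.4 and 24.2 CPM in HFD-KO, with a log2 fold change of -0.40 (unadjusted p = 0.00343, adjusted p = 0.271). The protease Furin had -0.13 and Tgfbi -0.27. The count lower, 4, became 10 without HFD-KO replicate 1 and 2 without HFD-KO replicate 2 or HFD-WT replicate 2. Around Acta2, 5 of 11 actin and smooth muscle regulator genes were tested, and 2 were higher, Actg1 at 0.35 (adjusted p = 0.357) and Srf at 0.24 (adjusted p = 0.545). Actb had 0.10 (adjusted p = 0.851) and Mrtfa, a cofactor of serum response factor, -0.27 (adjusted p = 0.626). The 2 became 0 without HFD-WT replicate 1 and 1 without HFD-WT replicate 2 or HFD-KO replicate 1.

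Markers of other liver cells differed between the libraries too. Of 16 Kupffer cell and macrophage markers, 15 had a log2 fold change below 0 and 10 were lower at the unadjusted threshold, with a median of -0.46. Over all genes tested, 48.4% were below 0 and 4.73% were lower at that threshold. None of the 16 was at 0 in these libraries, and their summed level was 689 and 816 CPM in HFD-WT and 590 and 554 CPM in HFD-KO. Vsig4, Cd5l and Mpeg1 had -0.63, -0.62 and -0.55, and C1qb and Lyz2 had -0.48 and -0.31. Vsig4, Cd5l and Mpeg1 had adjusted p of 0.0230, 0.00824 and 0.00597 in DESeq2's Wald test. The 10 became 4 without HFD-WT replicate 2. Macrophages make Tgfb1 as well, and the part of this difference in the value of Tgfb1 was not tested. Cholangiocyte markers summed to 88.0 and 107 CPM in HFD-WT and 79.0 and 67.0 CPM in HFD-KO, with 1 of 9 lower. That gene was Spp1, which is also in the matrix list and made up most of each sum. It had 64.3 and 83.9 CPM in HFD-WT and 53.8 and 42.8 CPM in HFD-KO, so the lower sums rested on Spp1.

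Several other cells share markers with stellate cells. Vascular smooth muscle and pericyte markers, which bear on Acta2 and Des, summed to 52.4 and 56.9 CPM in HFD-WT and 50.3 and 49.7 CPM in HFD-KO, with 0 of 8 past the unadjusted threshold. Portal fibroblast and mesothelial markers, which bear on Dcn and Lum, summed to 379 and 367 CPM and to 314 and 306 CPM, with 2 of 13 lower (0 without HFD-WT replicate 1, 4 without HFD-KO replicate 1) and 1 higher. Krt8, a keratin that hepatocytes also make, took 89.1% to 91.4% of that sum, and without it the sums were 38.1 and 32.7 CPM in HFD-WT and 34.3 and 26.5 CPM in HFD-KO, which overlapped. Sinusoidal endothelial markers summed to 538 and 599 CPM and to 541 and 541 CPM, with 1 of 16 lower. Skeletal and cardiac muscle markers summed to 1.02 to 2.18 CPM, with 1 of 9 tested. The part of these cells in the values of the 10 genes was not tested.

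**Figure D4:**
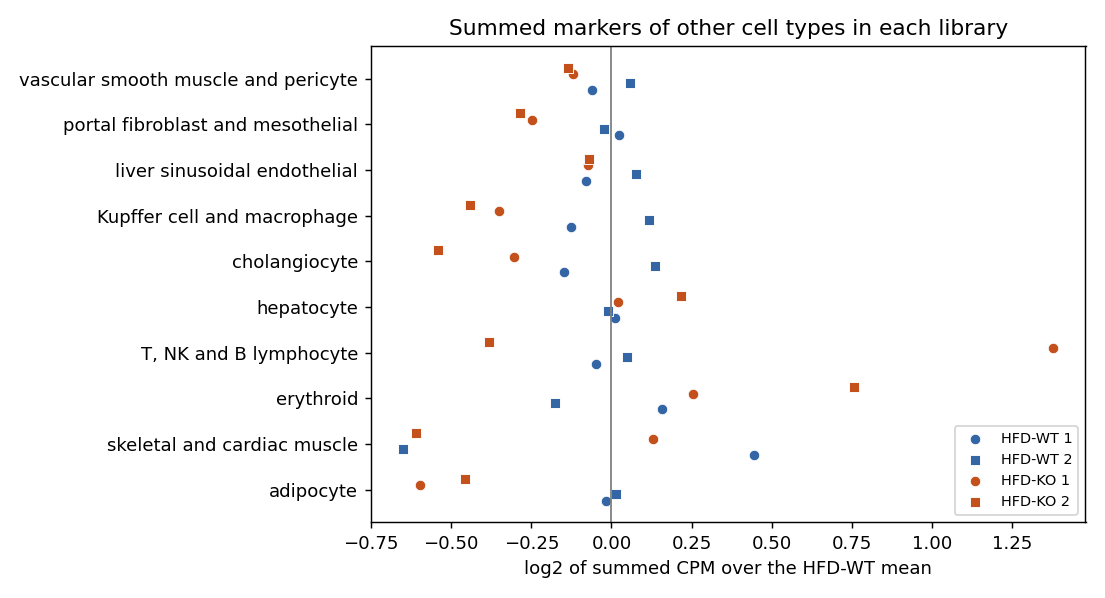
Summed CPM of marker lists of other cell types in each library, as log2 of the ratio to the HFD-WT mean (0 line), with blue for HFD-WT, orange for HFD-KO, circles for replicate 1 and squares for replicate 2. Kupffer cell and macrophage markers sit at -0.35 and -0.44 in HFD-KO, and sinusoidal endothelial markers at -0.07 in both.

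The remaining marker lists set HFD-KO replicate 2, which held the lowest value of 8 of the 10 genes, beside the rest. The 32 further identity genes summed to 659 and 714 CPM in HFD-WT and to 577 and 575 CPM in HFD-KO. That sum did not set HFD-KO replicate 2 apart from replicate 1, but Steap4 and Ecm1 made up large parts of it. Steap4 had 109 CPM in HFD-KO replicate 1 and 146 CPM in HFD-KO replicate 2, while Ecm1 had 134 and 109 CPM. The near-equal HFD-KO sums thus rested mainly on Steap4. They do not show that the other identity genes were level between these libraries. Hepatocyte markers summed to 95670 and 94190 CPM in HFD-WT, 96400 CPM in HFD-KO replicate 1 and 110400 CPM in HFD-KO replicate 2, with 1 of 12 higher at the unadjusted threshold. Alb, albumin, made up most of each sum, at 53710, 54900, 52680 and 66100 CPM in that order. The higher sum in HFD-KO replicate 2 thus rested mainly on this gene. Erythroid markers summed to 758, 601, 811 and 1148 CPM in the same order, with 3 of 6 higher (0 without HFD-WT replicate 2). Lymphocyte markers summed to 6.59, 7.05, 17.7 and 5.23 CPM in the same order, with 0 of 11 past the threshold (8 higher without HFD-KO replicate 2). The part of these differences in the lower values of the 10 genes in HFD-KO replicate 2 was not tested.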

How the data were processed

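Per the study's methods, the authors extracted liver RNA with TRIzol, made libraries with a directional MGI kit, sequenced paired ends of 100 bases, aligned to mm10 with the MGI tool and quantified in Partek with GENCODE annotation. The positions in the deposited table are GRCm39, and the submitters' processing notes name both builds. Tool versions, strand use in counting and the treatment of multiply aligned reads were not given in the sources used here.

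The deposited read counts are whole numbers per gene without normalization and were the only values tested. The authors' RPKM values gave exon lengths, which agreed between libraries within 0.662% over 14485 genes. The deposited TPM values and the deposited CPM columns, a score on a library size adjusted by the authors, were not used. CPM and RPKM printed here were computed from the counts.

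Counts were fitted in R 4.3.3 with edgeR 4.0.16 (limma 3.58.1): filterByExpr, TMM and the two-sided quasi-likelihood test of HFD-KO against HFD-WT over 12967 genes, with Benjamini-Hochberg adjustment over all of them. The common biological coefficient of variation was 0.102. The procedure was tested on simulated data. Alternatives were DESeq2 1.42.0 (its size factors and its Wald test), library size alone, no filter, a mean of at least 1 CPM, a replicate block, and each library left out. Where a group was left with 1 library, that library was assumed to vary like the others. Between replicates, chi-square over its degrees of freedom was 8.80 (HFD-WT) and 34.1 (HFD-KO), so no library was a copy of the other library of its genotype.

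The members and lists were chosen with earlier results of these data known. Named genes were every member, Adarb1 and, per list, any gene past the adjusted threshold, the 3 with the smallest unadjusted p and the 2 with the highest mean RPKM. For marker lists other than Kupffer cells, counts and sums are given, and some genes of the lists are not reported here by name. Intervals and floors cover counting error or library spread only. Promoter letters came from RefSeq tables. Summaries and plots used Python 3.11.15, numpy 2.4.6, pandas 2.3.3 and matplotlib 3.10.9.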

Additional observations from a re-analysis of the deposited data

How the results depend on the processing

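The count of members past an adjusted p of 0.05, 0 of 10, was 0 with DESeq2 size factors, with library size alone, with a mean of at least 1 CPM and with the replicate block, 1 in the DESeq2 Wald test and 2 without a filter, and ranged from 0 to 4 when each library was left out. The count at an unadjusted p, 3, ranged from 3 to 4 over the other alternatives and from 2 to 4 with a library left out. The count without overlap, 6, stayed at 6 under both other scalings. It was 7 to 8 with a library left out, where fewer libraries have to separate. The share of 20.3% of all genes is for 2 libraries against 2 and does not apply to those counts. Over all genes, the 10 past the adjusted threshold became 115 in the DESeq2 Wald test, 162 without a filter, 6 with library size alone, 6 with a mean of at least 1 CPM, 20 with the replicate block and 0 to 705 with a library left out. The split of 551 higher and 613 lower genes at an unadjusted p became 346 and 894 with library size alone, which moved the median of all genes to -0.04 and left 9 of the 10 members below 0. The replicate numbers carry no stated pairing, and deviations of same-numbered libraries had a correlation of -0.0752, so the block gives no paired result. With it 0 members passed the adjusted and 4 the unadjusted threshold, which 469 higher and 509 lower genes of 12967 passed.

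Of 100 member values under the 10 alternatives, 94 kept the sign of the reported value. The sign turned for Des (-0.28 to 0.30 with a library left out, -0.0376 with library size alone), Hgf (-0.50 to 0.0597) and Acta2 (-0.50 to 0.47), none of which passed a threshold. Among the named genes of the lists, with a library left out, it turned for Fn1 (-0.0397 to 0.36), Ttr (-0.0501 to 0.10), Vldlr (-0.40 to 0.12), Dab2 (-0.0349 to 0.0877), Hpn (-0.0190 to 0.0629), Mmp19 (-0.10 to 0.0117), Actb (-0.0482 to 0.23), Clec4g (-0.10 to 0.24), Fcgr2b (-0.13 to 0.0216), Alb (-0.0447 to 0.28), Ms4a1 (-0.89 to 2.25), Cd79b (-0.28 to 0.82) and Mylpf (-0.64 to 0.40), and with library size alone for Ttr (-0.0198), Dab2 (-0.0193) and Hpn (-0.0243). Of the 75 named genes of the lists, 0 passed the adjusted threshold as reported, 9 did in the DESeq2 Wald test, 12 without a filter, 34 without HFD-KO replicate 1, 18 without HFD-KO replicate 2 and 0 in each of the other 6 alternatives. Of 400 list counts under the alternatives, 98 moved by more than 1.5 times. The cause of these shifts was not tested. Depth limits Timp1, Acta2 and Hgf, with 19 to 95 reads per library.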

Other observations

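The members were also set against Lrat within each library, a ratio chosen after their values were seen, which does not depend on library size. The RPKM ratio of Reln to Lrat was 2.91 and 3.12 in HFD-WT and 2.33 and 2.12 in HFD-KO. That of Lum to Lrat was 3.82 and 4.07 in HFD-WT and 2.94 and 2.19 in HFD-KO, and that of Dcn to Lrat was 53.5 and 58.4 against 50.1 and 38.5. For Timp1 it was 0.875 and 0.893 against 0.706 and 0.609, and for Tgfb1 2.70 and 3.09 against 2.60 and 2.62. In these 5 the genotypes did not overlap, and in Des, Pdgfrb, Hgf and Acta2 they did. Over the 12966 genes tested other than Lrat, both HFD-KO ratios to Lrat lay below both HFD-WT ratios for 1297. Such a ratio shows unequal values of the genes in a library and not which of them differed.

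Of the adipocyte markers, 3 of 7 were tested. Cidec and Plin4, lipid droplet proteins that fatty hepatocytes also make, had log2 fold changes of -0.77 and -0.46 (adjusted p = 0.168 and 0.136, and 2.7e-04 and 0.00135 in DESeq2's Wald test), and Cfd had 0.92 (adjusted p = 0.518). The B cell markers Ms4a1 and Cd79a had 2.62 and 2.92 CPM in HFD-KO replicate 1, and each was at or under 0.945 CPM in the other libraries.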
